A study of Mus musculus with 8 samples.

Results

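The cytochrome P450 genes were examined in m6ARIP-seq of mouse liver, an assay in which fragments of mRNA that carry N6-methyladenosine (m6A) are captured with an antibody (IP) and sequenced together with uncaptured fragments (input). Livers came from 8-week-old C57BL/6 mice on normal chow of 2 genotypes, Wtap flox/flox and Wtap-HKO (Wtap flox/flox Alb-Cre). The floxed Wtap alleles are shared by both genotypes. Cre under the albumin promoter deletes Wtap in hepatocytes, and the state of the gene in other cells of the liver was not measured here. Each genotype had 2 IP and 2 input libraries, each made from the pooled RNA of several mice. The members are the genes whose symbol is Cyp followed by a number, a letter and a number, taken from the peak list of each genotype. They had 47 of the 15635 peaks in Wtap flox/flox liver, in 33 of 9020 genes, and 46 of the 19185 peaks in Wtap-HKO liver, in 35 of 10634 genes. In all, 42 Cyp genes had a peak in at least 1 genotype, 26 of them in both.

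Cytochrome P450 enzymes are haem proteins that insert an oxygen atom into their substrate with electrons from NADPH. In the hepatocyte, enzymes of the Cyp1, Cyp2 and Cyp3 families oxidise drugs, toxins, steroids and fatty acids. The Cyp4 family hydroxylates the end of fatty acid chains. The Cyp7, Cyp8, Cyp27 and Cyp39 families, grouped below as bile acid genes, include enzymes that turn cholesterol into bile acids, though not every member does so. m6A is placed on mRNA by a methyltransferase complex for which WTAP is an adaptor, most often at adenosines within GGAC-like contexts near the stop codon and in the 3′ UTR. A related mark, m6Am, can sit on the first transcribed base of an mRNA, is made by another enzyme, and is also bound by antibodies to m6A.

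The peaks of the Cyp genes lay near the 5′ end of the gene more often in Wtap-HKO liver than in Wtap flox/flox liver, so the annotated starts of the genes concerned are shown here. Each sequence holds 10 bases before and 20 bases from the annotated start, from RefSeq on GRCm38.p6, read 5′ to 3′ on the transcribed strand. Capitals mark the annotated first base of the transcript and any GGAC. Cyp4f14 has several annotated starts, and the one shown is the furthest upstream. Its 5′ end peaks in both genotypes end at another, at position 32917342, whose first base is G. Of the genes below, Cyp2d10 to Cyp4f14 had a 5′ end peak in both genotypes with over 2-fold higher enrichment in Wtap-HKO, and Cyp3a41a to Cyp2b9 had a 5′ end peak in Wtap-HKO liver only. Cyp1a2 is shown for contrast, as a gene with no 5′ end peak and lower enrichment in Wtap-HKO liver. Its GGAC is not typical, as only 4 of 17 starts of Cyp genes without a 5′ end peak held it. The start of Cyp1a1, which also had a peak with lower enrichment in Wtap-HKO liver, held none.
Cyp2d10 (minus strand, chr15:82407175-82407204): agcttgggccAgtctgattctaggtgttac
Cyp2d26 (minus strand, chr15:82794226-82794255): agtccatcatAagaggatctttcctgattc
Cyp3a11 (minus strand, chr5:145879835-145879864): agagtgggcaGagggaagcattgaggagga
Cyp4f13 (minus strand, chr17:32947342-32947371): aggaagttgtGgaagattcgctgctcgtga
Cyp4f14 (minus strand, chr17:32917337-32917366): agcaagggatAaaagagtcccagaggagag
Cyp3a41a (minus strand, chr5:145720117-145720146): acagcagagtAggcagaaaggtagccctac
Cyp2f2 (plus strand, chr7:27119945-27119974): gcccccacatAcacacatacactgcagcac
Cyp4f15 (plus strand, chr17:32685649-32685678): ggagaaccgtGggaaactcactgttcctga
Cyp4f18 (minus strand, chr8:72009607-72009636): gtcaggagtcAgagaaggggagagacagac
Cyp2b9 (plus strand, chr7:26173399-26173428): ctgtgcactgAagcagactcttgttagacc
Cyp1a2 (minus strand, chr9:57683636-57683665): gaacccagaaGtcctGGACtgactcccaca

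RefSeq start sites were found for 35 of the 42 Cyp genes, 39 starts in all. The letters GGAC were searched in the first 50 transcribed bases, on the transcribed strand only. Among Cyp genes with a 5′ end peak in either genotype, 1 of 22 starts (4.55%) held them, that of Cyp2b9. They were found in 4 of 17 starts (23.5%) of the Cyp genes without a 5′ end peak and in 18.9% of all 32851 starts in the table. GGACT, which lies within the same matches, was in 3 Cyp starts, those of Cyp1a2, Cyp2a4 and Cyp2a5, and in 5.76% of all starts. The annotated first base was A in 12 of the 22 starts with a 5′ end peak (54.5%), against 34.4% of all starts. Among all genes with a 5′ end peak, the first base was A in 32.5% of starts for the Wtap flox/flox list and in 31.8% for the Wtap-HKO list, and GGAC was present in 18.9% and 20.5%. Starts of 1 gene are not independent, and the letters say nothing of which base was methylated. The searched bases did not always lie within a peak, and the rest of the peak sequence was not analysed here.

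The replicates of a genotype are combined in each list, so no value below has an SD and no difference could be set against the spread between libraries. The depth of the libraries is unknown. The fold enrichment of a peak is the authors' ratio of IP over input, so it is relative to the RNA level of its gene, but a peak can be listed only where the RNA is abundant enough. The lists give no input levels. The absence of a peak can therefore not be told apart from a lower RNA level, nor fewer cells of a type from less RNA per cell. Of the hepatocyte markers, 4 of 8 had a peak in Wtap flox/flox liver and 6 of 8 in Wtap-HKO liver, with none listed for Cps1 and Serpina1a. The targeted gene, Wtap, had 3 peaks in each list, with fold enrichments of 8.06 to 20.7 in Wtap flox/flox and 4.47 to 20.6 in Wtap-HKO liver. These counts do not give the amount of Wtap RNA that remained.

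By family, the members covered the Cyp genes of the genome unevenly. RefSeq holds 98 protein-coding Cyp genes of the same naming pattern, of which 56 had no peak in either list. In Cyp1 to Cyp3, 32 of 60 genes had a peak, 25 in Wtap flox/flox liver and 26 in Wtap-HKO liver. In Cyp4 there were 6 of 20, with 4 in Wtap flox/flox and all 6 in Wtap-HKO liver. In the bile acid families there were 3 of 6, with all 3 in Wtap flox/flox liver and 2 in Wtap-HKO liver. Among the remaining families, such as those of steroid hormone synthesis, the only member of 12 with a peak was Cyp26b1, which degrades retinoic acid. Genes listed with no peak included Cyp2c29, Cyp4a10, Cyp4a14, Cyp27a1, Cyp27b1 and Cyp39a1. Most members had a single peak (21 of 33 genes in Wtap flox/flox and 26 of 35 in Wtap-HKO), and none had more than 3.

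The enrichment of the Cyp peaks was low beside that of all peaks in Wtap flox/flox liver. Their median fold enrichment was 3.05 against 5.51 over all peaks of that list, and it was 4.98 against 5.93 in Wtap-HKO liver. The Cyp values spanned 1.23 to 27.2 in Wtap flox/flox and 1.91 to 112 in Wtap-HKO. The median was higher in Wtap-HKO in the Cyp1 to Cyp3 families (2.84 and 4.73), in Cyp4 (2.79 and 5.42) and in the bile acid families (3.55 and 5.43). These medians are over different peaks in each list, and the matched peaks are compared below.

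A larger share of the Cyp peaks than of all peaks lay at the 5′ end of the gene in both lists, and the share was higher in Wtap-HKO. A peak was called a 5′ end peak when an edge of it lay within 200 nt of the 5′ end of the span of its RefSeq gene. In Wtap flox/flox liver 14 of 47 Cyp peaks were 5′ end peaks (29.8%, 95% Wilson interval 18.7 to 44.0), against 10.9% of all peaks of that list. In Wtap-HKO liver there were 21 of 46 (45.7%, interval 32.2 to 59.8), against 18.5% of all peaks. The intervals of the 2 genotypes overlap and cover counting error only. Peaks within 200 nt of the 3′ end numbered 10 (21.3%) in Wtap flox/flox liver, against 10.1% of all peaks of that list. In Wtap-HKO liver they numbered 5 (10.9%), against 8.34% of all. The 5′ end peaks were the weaker ones in Wtap flox/flox liver, with a median fold enrichment of 2.18 against 4.11 for the other Cyp peaks. In Wtap-HKO liver the 5′ end peaks had a median of 5.09 and the others 4.59. Over all genes the corresponding medians were 3.96 and 5.74 in Wtap flox/flox liver and 6.32 and 5.77 in Wtap-HKO liver, so the same change of order was seen in the whole lists.

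**Figure D1:**
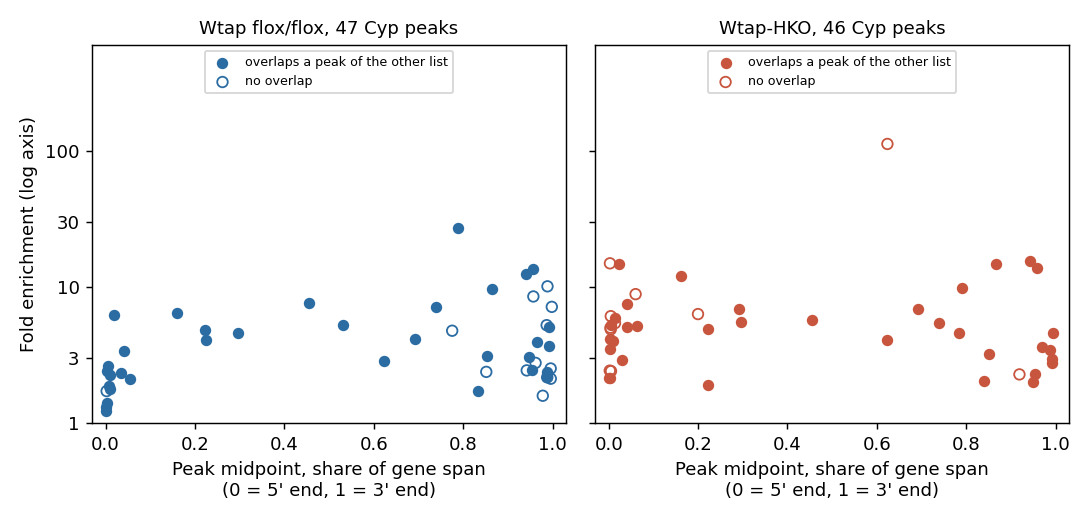
Fold enrichment (IP over input, log axis) of each Cyp peak against the position of its midpoint along the gene span, from the 5′ end at 0 to the 3′ end at 1, for the 47 peaks of Wtap flox/flox (left) and the 46 of Wtap-HKO (right). Filled points overlap a peak of the other genotype and open points do not. Peaks at the left edge were mostly below 3 in Wtap flox/flox and reached 14.9 in Wtap-HKO, while most open points lie near 1 in Wtap flox/flox and near 0 in Wtap-HKO.

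The subfamilies differed in where their peaks lay. All 6 peaks of the Cyp2c genes in Wtap flox/flox and all 7 in Wtap-HKO were 5′ end peaks. The Cyp2c genes encode a large cluster of enzymes on chromosome 19 that epoxidise arachidonic acid and oxidise drugs. In the Cyp2d genes 3 of 5 peaks in each genotype were 5′ end peaks. In Cyp2a, whose enzymes hydroxylate coumarin and steroids, 3 of 4 peaks in Wtap flox/flox and 3 of 5 in Wtap-HKO were near the 3′ end. No peak of Cyp1a1, Cyp1a2, Cyp1b1, Cyp26b1 or Cyp7a1 was near the 5′ end in either list. Where the promoter table had a start site, the 5′ end peak covered that start in 6 of 11 cases in Wtap flox/flox and in 12 of 18 in Wtap-HKO. The peaks of Cyp3a13 and Cyp2j6 at an inner start lay 3991 and 10644 nt or more from the 5′ end of the span and were not counted. Both reached or came within 20 nt of a RefSeq start site. Among peaks of genes with a start site in the table, counting them raised the number of 5′ end peaks from 11 to 13 of 33 in Wtap flox/flox and from 18 to 20 of 36 in Wtap-HKO liver.

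Peaks of the 2 genotypes were matched when they shared at least 1 exonic base on the same strand and neither overlapped a further peak, which left 33 matched Cyp peaks. Enrichment was higher in Wtap-HKO liver in 25 of them (75.8%) and lower in 8. The median log2 ratio of fold enrichment, Wtap-HKO over Wtap flox/flox, was 0.53, with quartiles of 0.02 and 0.90. Without the Cyp2a, Cyp2c and Cyp3a genes, whose members share sequence, it was 0.14 over 22 peaks, which still included the Cyp2d and Cyp4f genes. Over all 10499 matched peaks the median was 0.01, and 50.4% were higher in Wtap-HKO. By over 2-fold, 7 of the 33 Cyp peaks were higher, against 14.9% of all matched peaks, and 2 were lower, against 12.4% of all. When each peak was ranked within its own list, 21 of the 33 Cyp peaks had a higher percentile in Wtap-HKO liver, with a median shift of 6.54 percentile points. Over all matched peaks 4575 of 10499 had a higher percentile, with a median shift of -3.34.

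**Figure D2:**
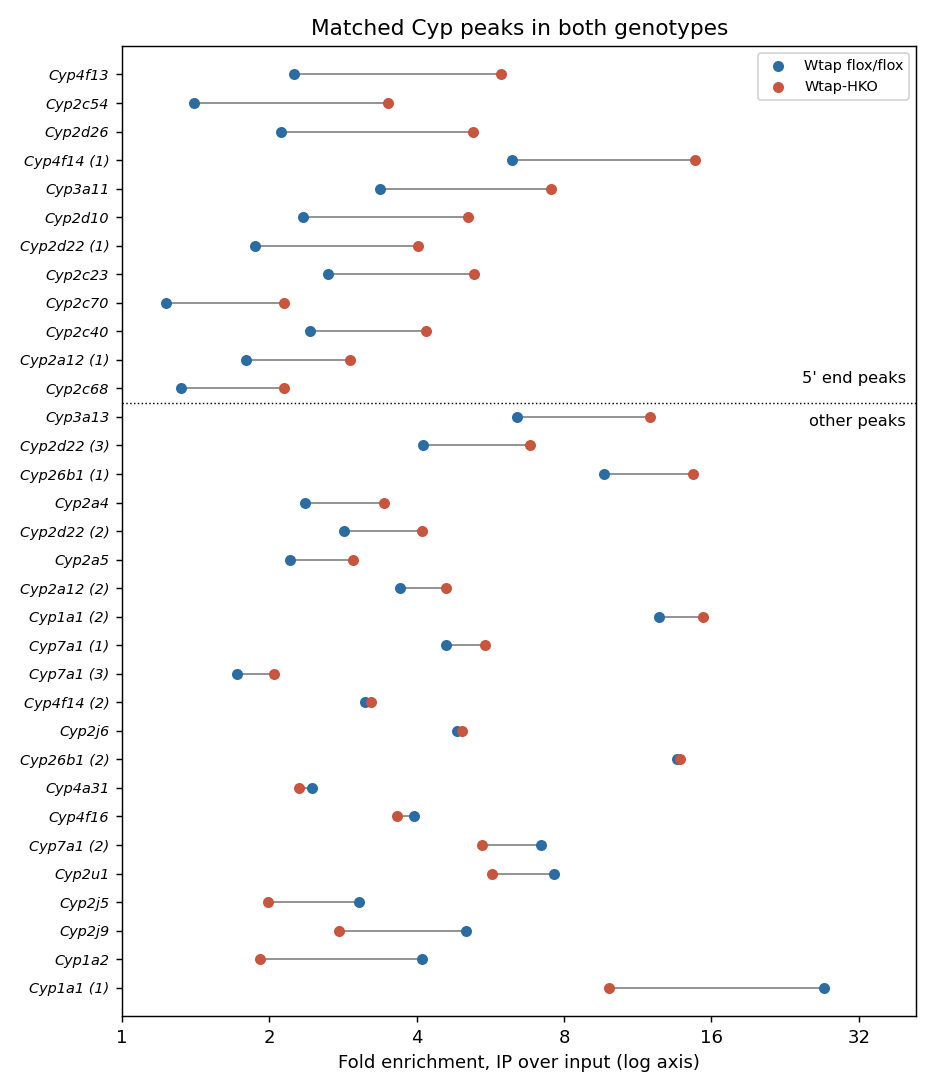
Fold enrichment (IP over input, log axis) of the 33 matched Cyp peaks in Wtap flox/flox (blue) and Wtap-HKO (red) liver, with 5′ end peaks above the dotted line and other peaks below it; numbers in brackets count the peaks of 1 gene from its 5′ end. All 12 peaks above the line have the red point to the right, while below it 13 of 21 do.

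The matched peaks differed by position. All 12 matched Cyp peaks at the 5′ end were higher in Wtap-HKO liver, with a median log2 ratio of 1.11. The 1396 matched 5′ end peaks of all genes had a median of 0.83, and 85.4% of them were higher in Wtap-HKO. In Wtap flox/flox liver the median fold enrichment of these matched 5′ end peaks was 2.18 for Cyp genes and 3.945 for all genes. A matched peak had to be listed in both genotypes, so peaks near the lowest listed enrichment had little room to be lower. The 21 matched Cyp peaks elsewhere in the gene had a median log2 ratio of 0.04, with 13 higher and 8 lower. The 8171 matched peaks elsewhere in all genes had a median of -0.13, and 43.4% were higher in Wtap-HKO.

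**Figure D3:**
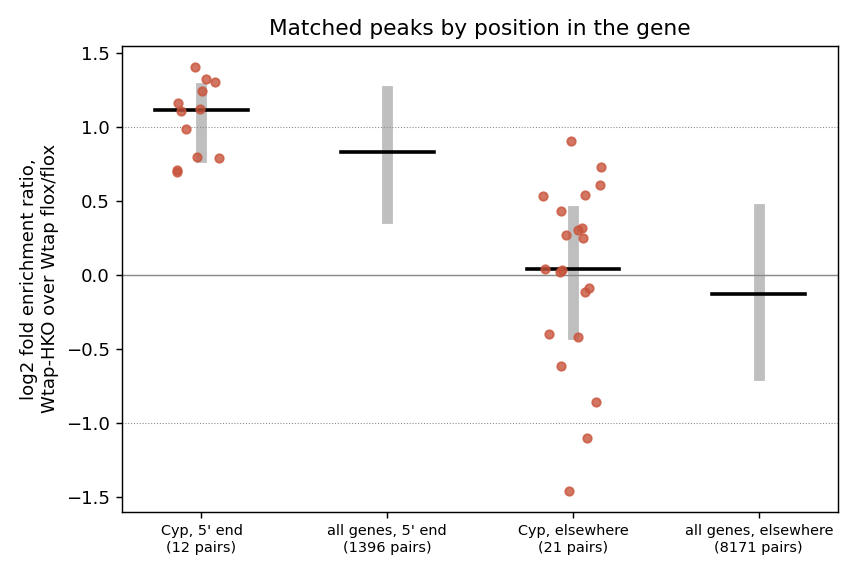
The log2 ratio of fold enrichment, Wtap-HKO over Wtap flox/flox, of matched peaks at the 5′ end of the gene and elsewhere, for Cyp genes (red points, 1 for each peak) and for all genes. Black lines are medians and grey bars run between the quartiles; dotted lines mark a 2-fold difference. The medians at the 5′ end were 1.11 for Cyp genes and 0.83 for all genes, and elsewhere they were 0.04 and -0.13.

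All 7 matched Cyp peaks with over 2-fold higher enrichment in Wtap-HKO were 5′ end peaks, and 5 of them belonged to the xenobiotic families. Cyp3a11 (ENSMUSG00000056035), the main Cyp3a drug-oxidising enzyme of mouse liver, had an enrichment of 3.36 in Wtap flox/flox liver and 7.51 in Wtap-HKO liver, in a peak of 2 exonic blocks on chromosome 5 (145877720 to 145879964). The set held 3 Cyp2d genes, whose enzymes oxidise basic drugs. The peak of Cyp2d10 went from 2.34 to 5.09, that of Cyp2d26 from 2.11 to 5.21 and the 5′ peak of Cyp2d22 from 1.87 to 4.02. In Cyp2c54 the peak went from 1.4 to 3.5. The 2 genes of the fatty acid family were Cyp4f13, from 2.25 to 5.95, and Cyp4f14, which inactivates leukotrienes, from 6.25 to 14.8 (chromosome 17, 32916780 to 32917342 in Wtap-HKO).

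The other 5 matched 5′ end peaks were higher in Wtap-HKO by less than 2-fold. Cyp2c23, an arachidonic acid epoxygenase, had 2.64 in Wtap flox/flox liver and 5.23 in Wtap-HKO liver. Cyp2c40 had 2.42 and 4.18, and Cyp2a12 had 1.79 and 2.92. Cyp2c70, which makes the muricholic acids of mouse bile, had 1.23 and 2.14, and Cyp2c68 had 1.32 and 2.14. The lowest enrichments among the Cyp peaks of Wtap flox/flox liver, 1.23 to 1.4, were thus all in Cyp2c genes. Members of the Cyp2c, Cyp2a and Cyp3a clusters share much coding sequence. How reads that fit several genes were handled is not stated, and the values of these members are uncertain to that extent. The same limit can apply to other related members, such as the Cyp2d and Cyp4f genes. Within the first 50 transcribed bases the longest run of identical bases was 20, between Cyp2c40 and Cyp2c69, over the 171 pairs of the 19 genes with a 5′ end peak and a start in the table. Runs of 14 bases came next, between Cyp4f13 and Cyp4f15 and between Cyp4f15 and Cyp4f18. Cyp2c23, Cyp2c54 and Cyp2d22 were not compared. The compared bases did not all lie within a peak, as the Wtap flox/flox peak of Cyp2c40 began 60 nt from the start. The runs therefore do not show whether reads within the peaks fit 1 gene only.

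In the 3 genes with matched peaks both at the 5′ end and elsewhere, the 5′ peak had the larger ratio. In Cyp4f14 the second peak, 1922 nt from the 3′ end, had 3.13 in Wtap flox/flox liver and 3.22 in Wtap-HKO. In Cyp2a12 the peak at the 3′ end had 3.69 and 4.59. In Cyp2d22, which had 3 peaks in each list, the inner ones had 2.84 and 4.11, and 4.13 and 6.83. These log2 ratios were 0.04, 0.31, 0.53 and 0.73, against 1.24, 0.71 and 1.10 for the 5′ peaks of Cyp4f14, Cyp2a12 and Cyp2d22.

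All 8 matched Cyp peaks with lower enrichment in Wtap-HKO lay away from the 5′ end. The 2 past 2-fold were in Cyp1a1 and Cyp1a2, neighbouring genes on chromosome 9 that are induced through the aryl hydrocarbon receptor and oxidise planar aromatic compounds. In Cyp1a1 (ENSMUSG00000032315) the inner peak (57700303 to 57700633) had the highest enrichment of any Cyp peak in Wtap flox/flox liver, 27.2, and 9.9 in Wtap-HKO liver, a log2 ratio of -1.46. Its second peak, 839 nt from the 3′ end, had 12.5 and 15.4. In Cyp1a2 (ENSMUSG00000032310) a peak of 681 exonic nt with 4.11 in Wtap flox/flox was matched by 1 of 238 nt with 1.91 in Wtap-HKO, a log2 ratio of -1.11. The epoxygenases Cyp2j9 and Cyp2j5 went from 5.04 to 2.78 and from 3.05 to 1.99. Cyp2u1, a fatty acid hydroxylase, had 7.64 and 5.7.

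Among the other matched peaks, the largest difference upwards was in Cyp3a13, in the peak at its inner start site, with 6.41 in Wtap flox/flox and a log2 ratio of 0.90. Cyp26b1 had 9.66 and 14.7 in 1 peak and 13.6 and 13.8 in the other. Cyp2a4 and Cyp2a5, near-identical genes, had 2.36 and 3.43, and 2.2 and 2.97, in peaks at their 3′ ends. Cyp2j6, Cyp4f16 and Cyp4a31 had log2 ratios of 0.03, -0.11 and -0.09.

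Of the 47 Cyp peaks of Wtap flox/flox liver, 13 (27.7%, 95% Wilson interval 16.9 to 41.8) overlapped no peak of Wtap-HKO liver, against 19.9% of all peaks of that list. Of the 46 Cyp peaks of Wtap-HKO liver, 11 (23.9%, interval 13.9 to 37.9) overlapped no Wtap flox/flox peak, against 35.3% of all. The 2 sets lay at different places. In the Wtap flox/flox set 1 of 13 was a 5′ end peak (7.69%), against 3.97% of all such peaks. In the Wtap-HKO set 8 of 11 were (72.7%, interval 43.4 to 90.3), against 27.6% of all such peaks.

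**Figure D4:**
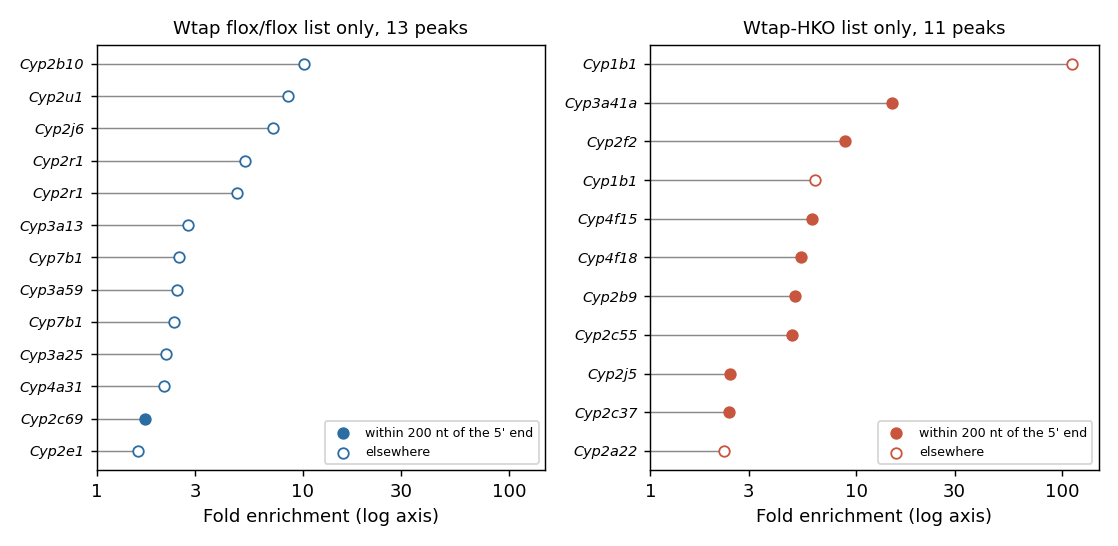
Fold enrichment (log axis) of the Cyp peaks that overlap no peak of the other genotype, 13 in Wtap flox/flox (left) and 11 in Wtap-HKO (right). Filled points lie within 200 nt of the 5′ end of the gene, which holds for Cyp2c69 on the left and for 8 of 11 peaks on the right; Cyp1b1 stands apart at 112.

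Of the 13 peaks found in Wtap flox/flox liver alone, 5 (38.5%) lay within 200 nt of the 3′ end of the gene, against 11.5% of all such peaks. Another 1 lay at the 5′ end and the others between. Cyp2b10, the phenobarbital-induced enzyme, had a peak with a fold enrichment of 10.1 that ended 178 nt from the 3′ end. Cyp2r1, which makes the circulating form of vitamin D, had 2 peaks, 5.24 at 35 nt from the 3′ end and 4.77 further in. Cyp2u1 had a peak of 8.51 at 376 nt from the 3′ end and Cyp2j6 one of 7.14 at 30 nt, both in genes whose other peak was matched. Lower values were found in Cyp3a13 (2.77), Cyp3a59 (2.44), Cyp3a25 (2.17), Cyp4a31 (2.12) and Cyp2e1 (1.59), the enzyme that oxidises ethanol. The exception at the 5′ end was Cyp2c69, with 1.72. Genes with a peak in this genotype alone were thus Cyp2b10, Cyp2c69, Cyp2e1, Cyp2r1, Cyp3a25, Cyp3a59 and Cyp7b1.

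The genes with a peak in Wtap-HKO liver alone were Cyp1b1, Cyp2a22, Cyp2b9, Cyp2c37, Cyp2c55, Cyp2f2, Cyp3a41a, Cyp4f15 and Cyp4f18. Cyp1b1 (ENSMUSG00000024087), which oxidises oestrogens and polycyclic aromatic compounds, had a peak of 931 nt with a fold enrichment of 112, the highest of any Cyp peak, on chromosome 17 (79709531 to 79710461), and another of 6.32. Neither was near the 5′ end. Among the 5′ end peaks the values were 14.9 in Cyp3a41a, 8.85 in Cyp2f2, the enzyme that activates naphthalene, 6.1 in Cyp4f15, 5.42 in Cyp4f18, 5.02 in Cyp2b9, 4.88 in Cyp2c55 and 2.41 in Cyp2c37. A further 5′ end peak appeared in Cyp2j5 (2.43), whose 3′ peak was matched. The peak of Cyp2a22 (2.28) lay 539 nt from the 3′ end.

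Cyp1b1 and Cyp4f18 are also expressed by cells of the liver other than hepatocytes, so markers of such cells were counted. The Wtap-HKO list holds more genes in all (10634 against 9020), and hepatocyte markers with a peak were also more numerous in it, as given above. Kupffer cell and leukocyte markers with a peak numbered 3 of 9 in Wtap flox/flox and 8 of 9 in Wtap-HKO liver, with Cd68, Lyz2, Marco, Ptprc and Vsig4 in the latter alone and Adgre1 in neither. For stellate cells the numbers were 4 and 5 of 6, for endothelial cells 5 and 5 of 6, and for cholangiocytes 2 and 3 of 5. The part of these cells in the Cyp1b1 and Cyp4f18 peaks was not tested.

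Among the bile acid genes no matched peak was at the 5′ end, and none of these genes had a peak in Wtap-HKO liver alone. Cyp8b1 had a 5′ end peak in each list, but its Wtap flox/flox peak overlapped 2 Wtap-HKO peaks and so was not matched. Cyp7a1 (ENSMUSG00000028240), the rate-limiting enzyme of bile acid synthesis, had 3 peaks on chromosome 4 in each genotype. From the 5′ end of the gene these had fold enrichments of 4.59 and 5.52, of 7.18 and 5.43, and of 1.72 and 2.04, first in Wtap flox/flox and then in Wtap-HKO. The log2 ratios were 0.27, -0.40 and 0.25. Cyp8b1 (ENSMUSG00000050445), the sterol hydroxylase needed for cholic acid, is a short gene on chromosome 9 that 1 peak of 1830 nt covered almost whole in Wtap flox/flox liver (121914356 to 121916185, 5.23). In Wtap-HKO liver the same stretch held 2 peaks, of 900 nt at the 5′ side (6.88) and of 841 nt at the 3′ side (4.57). The Wtap flox/flox peak lay within 200 nt of both ends of the gene and was counted at each. Both peaks of Cyp7b1, the oxysterol hydroxylase, with 2.52 at 599 nt from the 3′ end and 2.38 further in, were listed in Wtap flox/flox liver alone. Cyp51, the lanosterol demethylase of cholesterol synthesis, falls outside the naming pattern and had 1 peak, of 2.17, in Wtap-HKO liver, 249 nt from the 5′ end.

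**Figure D5:**
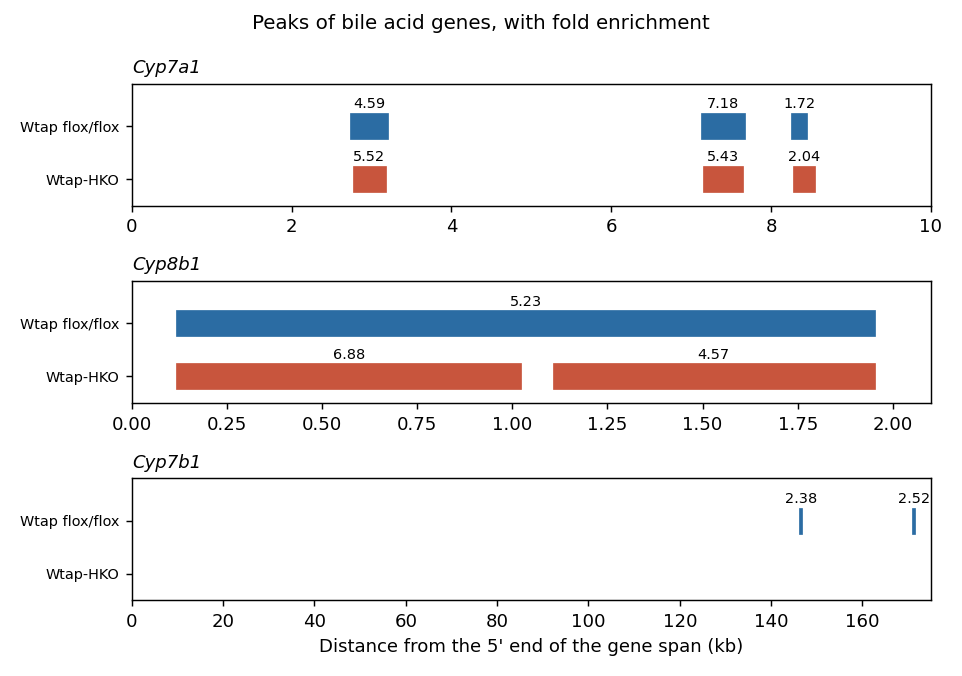
Peaks of Cyp7a1, Cyp8b1 and Cyp7b1 as bars along the gene, in kb from the 5′ end of its span, in Wtap flox/flox (blue) and Wtap-HKO (red) liver, with the fold enrichment of each peak above it. The 3 peaks of Cyp7a1 lie at the same places in both genotypes, the single Cyp8b1 peak of 5.23 is divided into peaks of 6.88 and 4.57, and Cyp7b1 has peaks in Wtap flox/flox alone.

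The authors' list of differential peaks held 16 peaks in 15 Cyp genes. This is 35.7% of the 42 Cyp genes with a peak, against 27.8% of all genes with a peak. None was in a Cyp gene of the bile acid families, 1 was in a fatty acid gene (Cyp4f14), and the other 14 genes belonged to the xenobiotic families. Of the 16, 9 overlapped a peak in both genotypes. In 8 of these, all at the 5′ end, the enrichment of the overlapping peak was higher in Wtap-HKO liver, in Cyp2a12, Cyp2c23, Cyp2c40, Cyp2c70, Cyp2d10, Cyp2d26, Cyp3a11 and Cyp4f14. The ninth was that of Cyp1a2, with lower enrichment in Wtap-HKO. Another 6 overlapped a Wtap flox/flox peak alone, none at the 5′ end, in Cyp2e1, Cyp3a13, Cyp3a25, Cyp3a59 and Cyp2r1, the latter with 2. The remaining 1 overlapped the strong Cyp1b1 peak of Wtap-HKO liver alone.

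Genes that serve the P450 enzymes were read from lists of their own. Of 8 symbols of electron supply (Fdx1l and Fdx2 name the same gene), 6 had a peak in each genotype, and 7 of 8 matched peaks were higher in Wtap-HKO liver. Por, the reductase that feeds electrons to microsomal P450 enzymes, had 2 matched peaks with log2 ratios of 0.56 and 0.72, and Cyb5a, a cytochrome that donates electrons to some P450 enzymes, had a matched peak with fold enrichments of 2.6 and 4.04. In haem synthesis 5 of 8 genes had a peak in Wtap flox/flox and 6 of 8 in Wtap-HKO liver, and all 3 matched peaks were higher in Wtap-HKO, in Urod, Ppox and Fech. Alas1, the first and limiting enzyme, had a peak in Wtap-HKO liver alone (fold enrichment 1.88). Alad, the next enzyme of the pathway, had a peak in Wtap flox/flox liver alone (2.63) and was the 1 gene of this list among the differential peaks. Of the 6 electron supply genes with a peak, 5 were among the differential peaks, against 27.8% of all genes with a peak. Median log2 ratios were 0.59 over 8 peaks for electron supply and 0.95 over only 3 peaks for haem synthesis. They were 0.53 for the Cyp genes and 0.01 for all matched peaks. These 2 lists were not split by position in the gene, though the ratio over all genes differed between the 5′ end and elsewhere.

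The regulators of Cyp genes had matched peaks in both directions. All 11 had peaks in both genotypes, and of 21 matched peaks 9 were higher and 12 lower in Wtap-HKO, with a median log2 ratio of -0.29. Of these 11 genes, 5 were among the differential peaks, against 27.8% of all genes with a peak. Ahr, the receptor that induces Cyp1a1 and Cyp1a2, had a matched peak with a log2 ratio of -1.47. In Ppara, the receptor that drives Cyp4a genes, all 3 matched peaks were lower, with a log2 ratio of -0.82 in the least changed, and in Nr1i3 (CAR), which drives Cyp2b10, both were higher, at 0.84 and 1.29. Rxra, the shared partner of these nuclear receptors, had 3 matched peaks with log2 ratios from -0.36 to 2.69. The highest enrichment of an Rxra peak in Wtap-HKO liver was 97.3. Nr5a2 had 2 matched peaks, with log2 ratios of -2.13 and -0.29. Hnf4a had 3, from -0.96 to 1.17, and Nr1i2 had 2, at -0.585 and 0.55. Among 9 further genes of bile acid synthesis and conjugation, 7 had a peak in Wtap flox/flox liver and 8 in Wtap-HKO liver, and of 6 matched peaks 4 were higher. All 9 had a peak in at least 1 genotype, and 7 of them were among the differential peaks. Slc27a5 and Akr1c6 were higher in Wtap-HKO, with log2 ratios of 1.13 and 1.30, and Akr1d1 was lower, at -1.01.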

How the data were processed

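m6ARIP-seq libraries (2 IP and 2 input in each genotype, 8 in all) were sequenced by the authors as 150 bp paired-end reads and aligned to GRCm38; the submitters' processing notes name fastp 0.19.11, BWA 0.7.12 and HOMER 4.9.1. The authors called peaks with exomePeak and deposited 3 lists, each with the replicates already merged. The fold enrichment that the authors deposited is a ratio, on a linear scale, of IP to input, and the false discovery rate is a log10 score that the authors deposited from the peak caller. The list of differential peaks also holds the authors' own comparison (log2 fold change, p-value and false discovery rate); these columns were not used, and membership and position alone were taken from it. No list gives reads, so the depth is unknown and no test was run.

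Peaks were counted, matched by at least 1 exonic base on the same strand (neither overlapping a further peak) and placed on RefSeq gene spans of GRCm38.p6, which include introns and all isoforms, with Python 3.11.15, pandas 2.3.3, numpy 2.4.6 and scipy 1.17.1. Wilson intervals (95%) cover counting error only. The computations were tested on simulated data. Differences of over 2-fold are descriptions with no replicate check. Figures were drawn with matplotlib 3.10.9.

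The members and gene lists were chosen with earlier results of these data known, and so was the distance of 200 nt. Genes were named by rule: every bile acid gene, the 5 with the highest enrichment in each list and family group, the 5 largest falls and rises, genes with a peak in 1 list, and genes with at least 2 differential peaks. Other named genes were chosen after their values were seen. Alternatives covered false discovery rate, enrichment and overlap thresholds, ranks and position measures.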

Additional observations from a re-analysis of the deposited data

How the results depend on the processing

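No paired analysis was possible because the replicates are combined in every list; for the same reason no replicate could be left out. Of 51 alternatives to 12 counts, shares and medians, 46 stayed within the limits set for a change (1.5 times for a count, the 95% interval for a share or median), none reversed a direction, and 5 moved. Several could change little and returned the main value, such as a false discovery rate under 0.01 and ignoring the strand. Among peaks of at least 2-fold enrichment, 20.5% of Wtap flox/flox Cyp peaks were 5′ end peaks, against 29.8%, which counted as within the limits. With peaks of at least 2-fold enrichment in both lists, the share of Wtap-HKO Cyp peaks that overlap a Wtap flox/flox peak was 61.4%, against 76.1%. With thresholds of 1.5-fold and 4-fold in place of 2-fold, 15 and 0 matched Cyp peaks were higher in Wtap-HKO liver (7 at 2-fold) and 4 and 0 were lower (2 at 2-fold). Added after seeing the data, the median log2 ratio was 0.14 over the 22 matched peaks outside Cyp2a, Cyp2c and Cyp3a, and 0.04 over the 21 away from the 5′ end, against 0.53 over all 33. The cause was not tested. The value of 0.04 lay at the lower limit of the 95% interval and so counted as unchanged. Centred on the median of all matched peaks it was 0.52. Depth limits which genes could have a peak and is unknown.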
